A study of Homo sapiens with 6 samples.

Results

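The TNF receptor superfamily genes described here are TNFRSF21, TNFRSF1A, TNFRSF10A, TNFRSF10B, TNFRSF10D, TNFRSF11A, TNFRSF11B, TNFRSF12A, TNFRSF19 and FAS, 10 genes in all. They were taken from the deposited expression table by matching each Ensembl identifier to its symbol in GENCODE release 29. This gave 9 of the 29908 genes in the table, and FAS is not analysed here. TNFRSF21 was chosen by its measured FPKM, for being much lower in the knockdown libraries, so its values are given as a description with no test, and it stood in a gene list that the study itself made with these libraries. TNFRSF11A, too, was drawn by the study in a heat map of genes from these libraries, so its direction is not independent of that choice. The study asked what changes in liver cancer cells when DAGLA, the gene of diacylglycerol lipase alpha, is knocked down. RNA was sequenced from 6 libraries of Hep3B, an established human hepatocellular carcinoma line. Hep3B-Con cells (3 libraries) were infected with a control lentivirus, and Hep3B-KD cells (3 libraries) with a lentivirus carrying a short hairpin RNA against DAGLA, both at a multiplicity of infection of 5. The sample titles call the control shControl and the series design text an empty vector, so whether it carried a hairpin is not settled. All cells were grown in the same serum-containing medium. Stable knockdown cells were selected with puromycin, and Hep3B-KD rests on 1 hairpin. The records call the libraries biological replicates without saying how the cultures were separated, so p-values measure the spread between these libraries, which may be partly technical.

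Receptors of this superfamily are membrane proteins with cysteine-rich repeats that bind trimeric ligands outside the cell. Members with a death domain can recruit FADD or TRADD and start caspase-8 signalling, members without one bind TRAF adaptors and feed NF-κB and MAP kinase pathways, and decoy members take up ligand without passing on a death signal. Hepatocytes are known for their sensitivity to FAS and, when NF-κB is blocked, to TNF.

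The 6 libraries held between 15861039 and 17572714 reads assigned to genes. Expression is given as FPKM, reads scaled to the exon length of the gene and the total of the library. That length counts all annotated exons of a gene, whether used in these cells or not. The order, shares and ratios of different genes below therefore depend on the annotation. DAGLA was at 9.42, 9.40 and 9.02 FPKM in Hep3B-Con and at 4.62, 4.46 and 4.78 in Hep3B-KD, with a log2 fold change of -0.99 (exact permutation test, two-sided, p = 0.1, which is the lowest value possible with 3 libraries a group). With limma, used for the other genes below, the adjusted p of DAGLA was 4.9e-06. The hepatocyte markers ALB, AFP, APOA1, APOB, TTR, SERPINA1, HNF4A and TF were all expressed. Of these 8 markers, 7 rose in Hep3B-KD and HNF4A fell, beside 36.3% and 24% of all genes tested, and their summed level was 2565 to 2612 FPKM in Hep3B-Con against 4088 to 4105 in Hep3B-KD. APOB, the backbone protein of very low density lipoprotein, rose from 86.1 to 198 FPKM. ALB, serum albumin, rose from 2042 to 3315 FPKM. SERPINA1, alpha-1 antitrypsin, rose from 226 to 247 FPKM, a call that was lost when libraries were centred on their median log ratio (limma, adjusted p = 0.134). Of 8 markers of other cells 5 were measured, with summed levels of 1.0012 to 1.14 FPKM in Hep3B-Con and 0.724 to 0.864 in Hep3B-KD. PTPRC, the pan-leukocyte marker, reached at most 0.0377 FPKM and VWF, an endothelial marker, at most 0.00554. PECAM1, also endothelial, was at 0.193 to 0.205 FPKM in Hep3B-Con and 0.268 to 0.385 in Hep3B-KD, and LRAT, a stellate cell marker, at 0.0874 to 0.145 and 0.133 to 0.191. COL1A1, the fibroblast collagen and the only one of these 5 above the filter on low values, went from 0.7455 to 0.271 FPKM (log2 fold change -1.197). The part of the hepatocyte genes in the receptor values was not tested, and in bulk RNA a change in the share of cells in a given state and a change in RNA per cell cannot be told apart.

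TNFRSF21 was lower in Hep3B-KD by more than any other receptor, TNFRSF1A, TNFRSF10D, TNFRSF12A and TNFRSF10B fell by smaller amounts, and TNFRSF11B rose. Each gene was compared with limma on log2(FPKM + 0.1), a scale that understates the change of low genes, and a gene was called at a Benjamini-Hochberg adjusted p under 0.05 over the 14147 genes whose mean reached 0.5 FPKM. All 9 measured receptors lay above that filter. Leaving out TNFRSF21, 5 of 8 receptors were called in either direction, beside 60.3% of all genes tested, and 3 were not. Of the 8, 4 were called lower, beside 24% of all genes tested, and 1 was called higher, beside 36.3%. The Hep3B-KD values lay wholly below the Hep3B-Con values for 6 of the 8, beside 26.4% of all genes, and wholly above for 1, beside 40.8%. Among the 6 is TNFRSF11A, whose direction is not independent of the study's choice. TNFRSF11A also enters the median below and the lower calls after centring and quantile normalization. With a 2-fold change required as well, 1 of 8 was higher, beside 5.88%, and 0 were lower, beside 2.95%. The median log2 fold change was -0.46 over the 8 receptors and 0.11 over all genes tested. The counts moved with the scaling. With libraries centred on the median of their log ratios, which brought that median to 0.0055, 6 of 8 receptors were called lower, beside 30.5% of all genes, and 1 higher, beside 28.8%. With quantile normalization 5 were called lower, beside 27.6%, and 1 higher, beside 30.2%. Over all genes, the 832 higher and 417 lower genes past 2-fold became 615 and 535 after centring. All 9 receptors kept their direction in the 17 alternative settings in which they could be fitted.

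**Figure D1:**
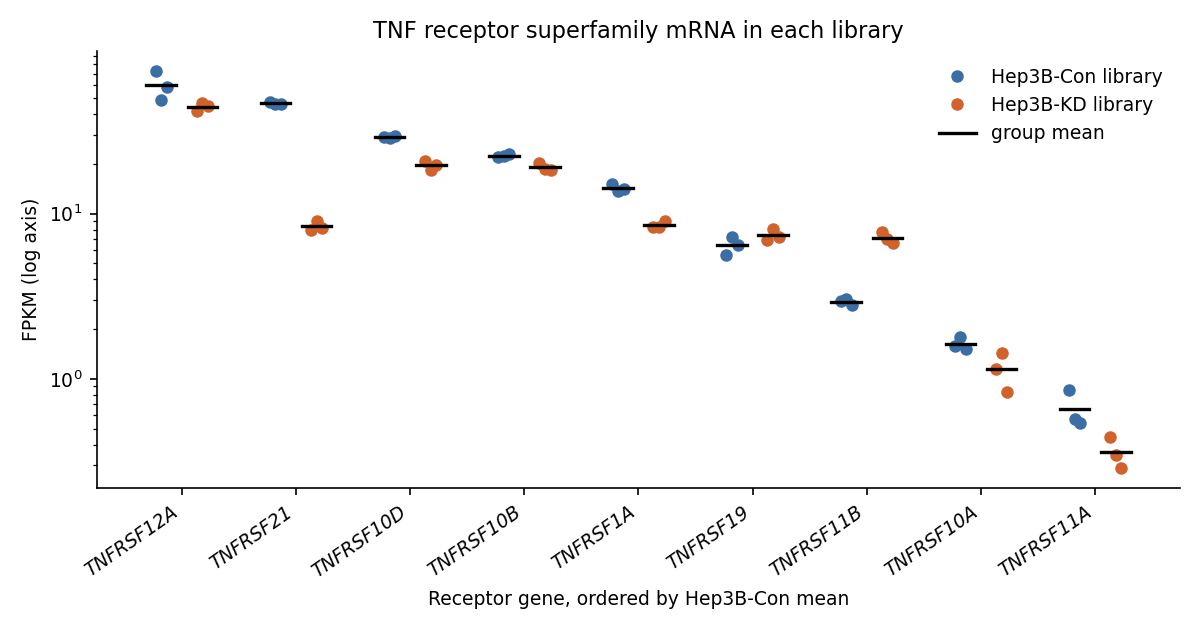
FPKM of the 9 measured receptors in each library on a log axis, ordered by the Hep3B-Con mean; each point is 1 library and each bar the mean of 3. TNFRSF21 drops from second place at 46.4 FPKM to 8.37 FPKM, TNFRSF11B climbs from 2.93 to 7.14 FPKM, and TNFRSF19 is the only receptor whose groups overlap.

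**Figure D2:**
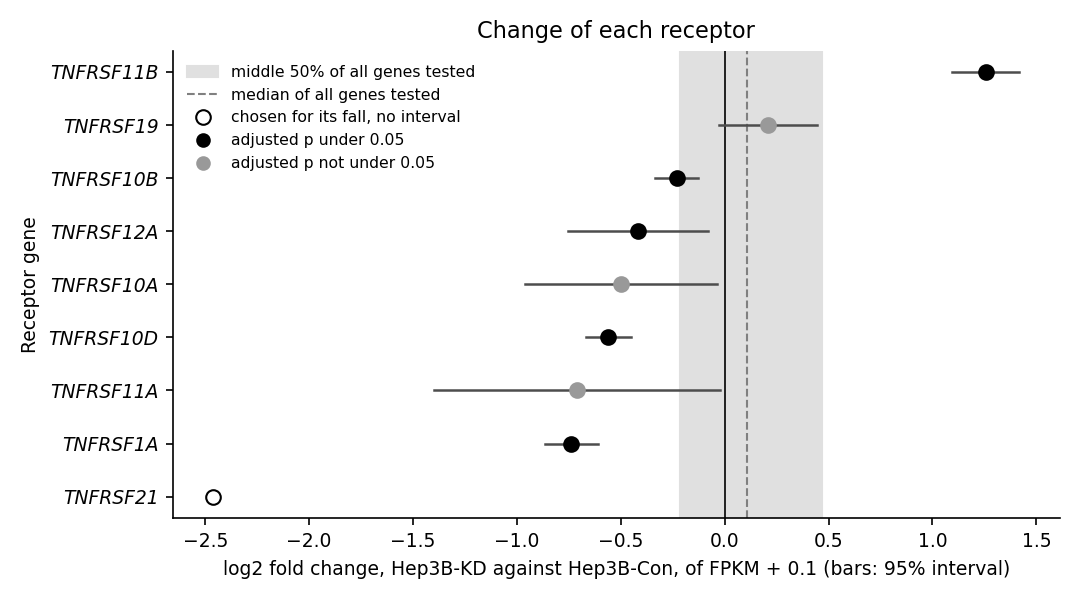
Log2 fold change of each receptor, Hep3B-KD against Hep3B-Con, on FPKM + 0.1, with the 95% interval from limma as a bar (none for TNFRSF21, which was chosen for its difference). The grey band, from -0.21 to 0.47, holds the middle 50% of all genes tested; TNFRSF21 at -2.46 and TNFRSF11B at 1.26 lie farthest from it.

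TNFRSF21 encodes death receptor 6, a death-domain receptor known from neurons and lymphocytes. The gene (ENSG00000146072) spans bases 47231532 to 47309905 of chromosome 6 (minus strand, GRCh38). TNFRSF21 was at 47.3, 46.2 and 45.8 FPKM in Hep3B-Con and at 7.93, 8.95 and 8.21 FPKM in Hep3B-KD. The 3 Hep3B-KD values lay close together and far below the 3 Hep3B-Con values. The reads counted were 2741 to 2988 a library in Hep3B-Con and 452 to 517 in Hep3B-KD. The means were 46.4 ± 0.771 (SD, n = 3) and 8.37 ± 0.530 FPKM (SD, n = 3), which is 5.55-fold lower in Hep3B-KD and a log2 fold change of -2.46. Across the alternatives this value ranged from -2.56 to -2.34. Of the 14147 genes tested, 32 had a lower log2 fold change. TNFRSF21 made up 23.9% to 26.9% of the summed FPKM of the 9 receptors in Hep3B-Con and 6.88% to 7.61% in Hep3B-KD. The sum itself was 172 to 197 FPKM and 115 to 118 FPKM, respectively. This sum contains TNFRSF21, which was chosen for its fall. A lower share, and in part a lower sum, were therefore given in advance.

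A short hairpin RNA can act on mRNAs other than its target through the seed of its guide strand, bases 2 to 8, so the 3′ UTRs of the receptors were searched for the 7-base seed match. The sequences below are shown because TNFRSF21 was the only receptor with a match among the measured receptors named at the start. Matches in other receptors of the superfamily are not listed here. The guide was taken as the reverse complement of the hairpin's 19-base target, which lies in coding exon 18 of 20 of DAGLA (ENST00000257215.9) at chr11:61740504-61740522 on the plus strand of GRCh38. Capitals mark the seed in the guide and its match in the target and in TNFRSF21, all written 5′ to 3′.
shDAGLA target: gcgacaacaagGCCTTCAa
shDAGLA guide: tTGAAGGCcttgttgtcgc
TNFRSF21 3′ UTR: atcagaaaaatGCCTTCAagtgtactaatt
The TNFRSF21 stretch lies at chr6:47231558-47231587 on the minus strand of GRCh38, in exon 6 of 6 of ENST00000296861.2, and the match begins at base 1189 of a 1233-base 3′ UTR. The longest 3′ UTRs of the other 8 measured receptors held no such match. Such a match was common, since 1628 of the 11188 expressed genes with a 3′ UTR of at least 50 bases held it (14.55%). Without DAGLA, the median log2 fold change was -0.04 over the 1627 genes with a match and 0.11 over the 9560 without. A longer 3′ UTR has more places for a match, and the sets were not matched for length or set beside another seed. Whether the difference between the medians is particular to this seed was not tested. Counted from the lowest log2 fold change, TNFRSF21 had rank 6 among the 1627 genes with a match. Because TNFRSF21 was chosen for its fall, a low rank was given in advance and tells nothing about the match. These values are a description, and the part of the match in the TNFRSF21 level was not tested.

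TNFRSF1A (ENSG00000067182, chromosome 12, bases 6328757 to 6342114, minus strand) encodes TNF receptor 1, the death-domain receptor through which TNF reaches most cells. It was at 15.1, 13.7 and 14.0 FPKM in Hep3B-Con and at 8.28, 8.27 and 8.98 FPKM in Hep3B-KD. The 2 groups stood well apart, and the 3 libraries within each lay close together (14.3 ± 0.736 and 8.51 ± 0.409 FPKM, SD, n = 3). TNFRSF1A fell by 0.74 on the log2 scale (standard error 0.0528, limma, adjusted p = 3.47e-05) and was called in all 17 alternatives. Among all genes tested, 6.44% had a lower log2 fold change.

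The receptors of TRAIL, the ligand encoded by TNFSF10, lie next to each other on chromosome 8. TNFRSF10A (ENSG00000104689, 23190452 to 23225126, minus strand) and TNFRSF10B (ENSG00000120889, 23020133 to 23069179, minus strand) encode the death-domain receptors DR4 and DR5. TNFRSF10D (ENSG00000173530, 23135588 to 23164030, minus strand) encodes a decoy receptor with a truncated death domain. TNFRSF10D was at 28.97, 28.7 and 29.2 FPKM in Hep3B-Con and at 20.8, 18.4 and 19.6 FPKM in Hep3B-KD, and the groups did not overlap. It fell by 0.56 on the log2 scale (standard error 0.0455, limma, adjusted p = 6.12e-05). TNFRSF10B was at 21.9, 22.3 and 22.8 FPKM in Hep3B-Con and at 20.2, 18.6 and 18.3 FPKM in Hep3B-KD. The Hep3B-KD values again all lay under the Hep3B-Con values, and TNFRSF10B fell by 0.23 on the log2 scale (standard error 0.0429, limma, adjusted p = 0.00323). Both genes were called in all 17 alternatives, and the TNFRSF10B change ranged from -0.33 to -0.19.

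TNFRSF10A was much less abundant than TNFRSF10B and TNFRSF10D, at 1.58, 1.79 and 1.51 FPKM in Hep3B-Con and 1.15, 1.43 and 0.837 FPKM in Hep3B-KD. These levels came from 74 to 92 reads a library in Hep3B-Con and 41 to 68 in Hep3B-KD. The groups did not overlap, although the second Hep3B-KD library came close to the lowest Hep3B-Con library. The log2 fold change was -0.50 (standard error 0.193, limma, adjusted p = 0.0604) and was not called. It was called in 5 of 17 alternatives, and over all 17 the adjusted p ranged from 0.0132 to 0.161. Leaving out Hep3B-KD replicate 2 gave -0.67 with an adjusted p of 0.0204, and leaving out Hep3B-KD replicate 3 gave -0.31 with 0.122. Exons of TNFRSF10A overlap those of TNFRSF10A-AS1 on the opposite strand over 224 bases and of AC100861.1 over 266 bases, 7.59% and 9.01% of its exon length, and those of TNFRSF10B overlap RHOBTB2 over 67 bases (1.30%). Whether the counting used strand is not given in the sources used here, so reads in those stretches cannot be told apart. The TRAIL receptor transcripts, the decoy TNFRSF10C included, shared 0 stretches of 50 identical bases.

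TNFRSF10A, TNFRSF10B and TNFRSF10D together summed to 52.4 to 53.5 FPKM in Hep3B-Con and 38.4 to 42.1 FPKM in Hep3B-KD. Of that sum TNFRSF10D took 54.7% ± 0.469 and 49.3% ± 1.39 (SD, n = 3 each), respectively, while TNFRSF10B took 41.7% to 42.6% and 47.2% to 48.4%. The share of TNFRSF10A overlapped between the groups, at 2.81% to 3.40% and 2.16% to 3.73%. The level of the decoy TNFRSF10D relative to the signalling TNFRSF10B was 1.32, 1.29 and 1.28 in Hep3B-Con and 1.03, 0.990 and 1.07 in Hep3B-KD. These ratios did not overlap, and at this number of libraries no exact permutation test could go below p = 0.1.

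**Figure D3:**
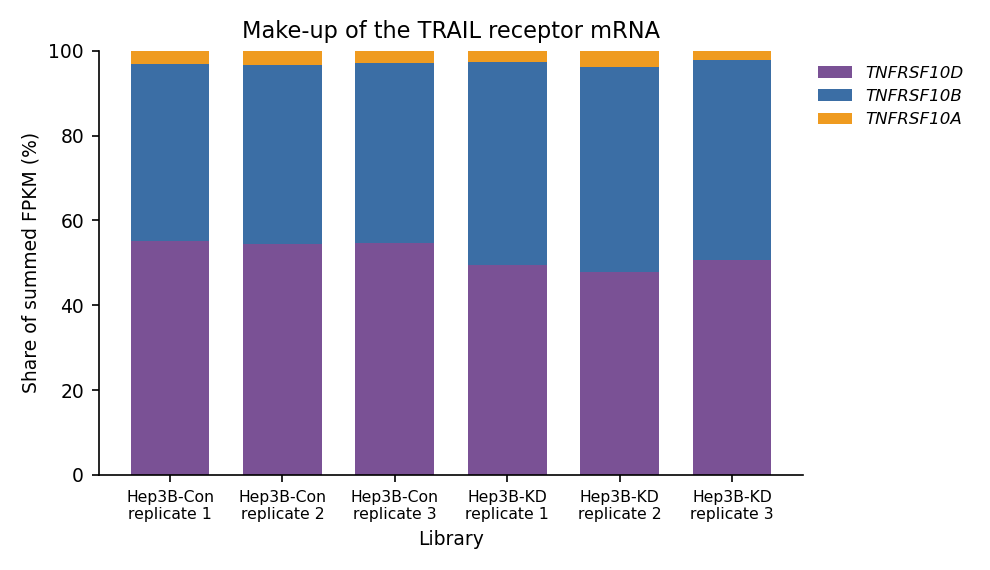
Share of TNFRSF10D, TNFRSF10B and TNFRSF10A in their summed FPKM, in percent, with 1 stacked bar per library. TNFRSF10D holds 54.3% to 55.3% in the 3 Hep3B-Con libraries and 47.9% to 50.7% in the 3 Hep3B-KD libraries, and TNFRSF10A holds at most 3.73% in any library.

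TNFRSF11B encodes osteoprotegerin, a secreted decoy receptor for RANKL and also a binder of TRAIL. The gene (ENSG00000164761) spans bases 118923557 to 118952200 of chromosome 8 (minus strand), far from the TRAIL receptor cluster. Its level was 2.96, 3.03 and 2.78 FPKM in Hep3B-Con and 7.69, 7.05 and 6.67 FPKM in Hep3B-KD. Every Hep3B-KD library lay far above every Hep3B-Con library. TNFRSF11B rose by 1.26 on the log2 scale (standard error 0.0674, limma, adjusted p = 1.02e-05), a 2.44-fold change of the means. It was called in all 17 alternatives, with values from 1.05 to 1.30, and 96.3% of all genes tested had a lower log2 fold change.

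TNFRSF11A encodes RANK, the signalling receptor for RANKL. Its gene (ENSG00000141655) spans bases 62325287 to 62391292 of chromosome 18 (plus strand). It was the lowest of the measured receptors, at 0.860, 0.569 and 0.541 FPKM in Hep3B-Con and 0.441, 0.346 and 0.288 FPKM in Hep3B-KD. The groups did not overlap, and the first Hep3B-Con library stood above the other two. The reads counted were 81 to 136 a library in Hep3B-Con and 43 to 63 in Hep3B-KD. The log2 fold change was -0.71 (95% interval -1.40 to -0.02), but it was not called after adjustment over all genes (limma, adjusted p = 0.0707). It was called in 4 of 16 alternatives. Without the first Hep3B-Con library the value was -0.53 with an adjusted p of 0.222, and on reads recovered from the FPKM (voom) it was -0.87 with an adjusted p of 0.00139. The level of the decoy TNFRSF11B relative to TNFRSF11A was 3.44, 5.33 and 5.15 in Hep3B-Con and 17.4, 20.4 and 23.2 in Hep3B-KD. These ratios did not overlap, and of the 2 genes TNFRSF11B was the one called.

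TNFRSF12A encodes Fn14, the receptor of TWEAK, a TRAF-binding receptor without a death domain known for its induction in injured liver. The gene (ENSG00000006327) spans bases 3018445 to 3022383 of chromosome 16 (plus strand), and 40 bases of its exons (2.17%) overlap CLDN6 on the opposite strand. TNFRSF12A was the most abundant of these receptors in both groups, at 73.2, 48.3 and 58.5 FPKM in Hep3B-Con and 41.8, 46.6 and 44.6 FPKM in Hep3B-KD. The Hep3B-Con libraries were spread widely (60.0 ± 12.5, SD, n = 3) and the lowest of them lay just above the highest Hep3B-KD library (44.3 ± 2.38, SD, n = 3). TNFRSF12A fell by 0.42 on the log2 scale (standard error 0.140, limma, adjusted p = 0.0386). This was the least stable of the calls, since it held in 9 of 17 alternatives, with adjusted p from 0.000593 to 0.107. Without Hep3B-Con replicate 1 the change was -0.26 with an adjusted p of 0.0494. The call was lost without Hep3B-Con replicate 3 (0.0819), Hep3B-KD replicate 1 (0.107), Hep3B-KD replicate 2 (0.0646) or Hep3B-KD replicate 3 (0.0866). It was also lost with the replicate number as a block (0.0683), with quantile normalization (0.102), with no filter (0.0829) and with eBayes without trend (0.0723). Hep3B-Con replicate 1, the highest library for TNFRSF12A and TNFRSF11A, differed more from its group over all genes (chi-square per gene of 3.30 and 2.85) than the other Hep3B-Con libraries did from each other (1.80), while Hep3B-KD pairs differed by 1.91 to 2.76.

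TNFRSF19, also called TROY, is a receptor without a death domain known from the nervous system and as a Wnt target in stem cells. Its gene (ENSG00000127863) spans bases 23570370 to 23676104 of chromosome 13 (plus strand). TNFRSF19 was at 5.64, 7.19 and 6.44 FPKM in Hep3B-Con and at 6.93, 8.06 and 7.24 FPKM in Hep3B-KD. The groups overlapped, because the second Hep3B-Con library lay above the first Hep3B-KD library. The log2 fold change was 0.21 (95% interval -0.03 to 0.44, limma, adjusted p = 0.111). It was called in 3 of 17 alternatives, among them the fit without Hep3B-Con replicate 2 (0.29, adjusted p = 0.0378) and the replicate block (adjusted p = 0.0234). Without Hep3B-Con replicate 1 it was 0.12 (adjusted p = 0.281), and with centring 0.10 (adjusted p = 0.400).

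In Hep3B-Con the receptors stood in the order TNFRSF12A, TNFRSF21, TNFRSF10D, TNFRSF10B, TNFRSF1A, TNFRSF19, TNFRSF11B, TNFRSF10A and TNFRSF11A, and no neighbours overlapped in their ranges. TNFRSF12A was higher than 97.8% of all gene symbols in the table and TNFRSF11A higher than 56.4%. In Hep3B-KD the order was TNFRSF12A, TNFRSF10D, TNFRSF10B, TNFRSF1A, TNFRSF21, TNFRSF19, TNFRSF11B, TNFRSF10A and TNFRSF11A. There, TNFRSF10D and TNFRSF10B overlapped, as did TNFRSF1A with TNFRSF21, TNFRSF21 with TNFRSF19 and TNFRSF19 with TNFRSF11B. TNFRSF21 moved from rank 2 to rank 5, where 4 receptors lay between 7.14 and 8.51 FPKM on average.

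The genes whose log2(FPKM + 0.1) followed that of TNFRSF21 most closely over the 6 libraries were EEF1B2, S100A11 and EIF2S3, with Pearson's r of 0.99991, 0.99982 and 0.9998. These points share the difference between the groups, and r does not reflect its size, since EEF1B2, a translation elongation factor subunit, went from 239 to 151 FPKM and S100A11, a calcium-binding protein, from 29.7 to 4.18 FPKM. The genes nearest to TNFRSF12A were PLLP, TMEM52 and SIPA1, with r of 0.99188, 0.99078 and 0.98794, and each shared its high value in the first Hep3B-Con library.

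The promoters of 4 of the receptors (TNFRSF21, TNFRSF1A, TNFRSF11A and TNFRSF19, 5 promoters) were present in the RefSeq set for GRCh38.p14, from 250 bases before to 50 after the start. They were searched on both strands for GGAATG (TEAD), TGANTCA (AP-1), TGACGTCA (CRE) and GGANTTTCC (NF-κB), which were found in 14.03%, 7.71%, 1.85% and 1.64% of all 35116 promoters. None of these letters occurred in the 5 promoters, where the number of matches was 0 for each motif.

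Of 19 other receptors of the superfamily, 13 were measured and 4 passed the filter, with 1 called higher and 1 lower, beside 36.3% and 24% of all genes. LTBR, the lymphotoxin β receptor, fell from 15.9 to 10.0 FPKM, by 0.67 on the log2 scale (limma, adjusted p = 0.0011). TNFRSF25, death receptor 3, rose from 2.08 to 3.05 FPKM, by 0.53 (adjusted p = 0.000702), and was named after its value had been seen. TNFRSF14, the receptor of LIGHT, was at 2.77 and 3.20 FPKM and was not called (adjusted p = 0.134). RELT was not called either (adjusted p = 0.243), and the 9 receptors under the filter had means of at most 0.468 FPKM.

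The ligands were sparse. Of 18 TNF superfamily ligands, 15 were measured and 4 passed the filter, with 1 called higher and 1 lower, beside 36.3% and 24% of all genes. Both passed 2-fold, beside 5.88% and 2.95%. LTB, lymphotoxin β, rose from 1.85 to 5.61 FPKM, by 1.57 on the log2 scale (limma, adjusted p = 0.00292). TNFSF4, the ligand OX40L, fell from 1.63 to 0.665 FPKM, by 1.18 (adjusted p = 0.000722). TNFSF9, the 4-1BB ligand, was at 2.11 and 1.65 FPKM and was not called (adjusted p = 0.0718).

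Ligands known for TNFRSF1A, the TRAIL receptors, TNFRSF11A and TNFRSF12A lay under the filter and were looked at after their values had been seen. TNF, the ligand of TNFRSF1A, had 0, 0 and 1 reads in Hep3B-Con and 0 in each Hep3B-KD library, below a floor of 3 reads. TNFSF10, which encodes TRAIL, had 7, 14 and 3 reads in Hep3B-Con and 24, 33 and 18 in Hep3B-KD, or 0.0519 to 0.232 FPKM against 0.312 to 0.592 FPKM. These ranges did not overlap. TNFSF11, which encodes RANKL, had 8, 14 and 7 reads in Hep3B-Con and 0, 5 and 4 in Hep3B-KD. TNFSF12, which encodes TWEAK, had 6, 8 and 12 reads and 10, 7 and 4 reads, and its groups overlapped. At this depth the ligands were close to the limit of counting, and no fold is given.

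Inside the cell, death receptor signalling held 15 genes, of which 11 passed the filter, with 4 called higher and 3 lower, beside 36.3% and 24% of all genes, and 4 not called. None passed 2-fold. CASP6, an executioner caspase, rose from 14.5 to 21.6 FPKM, by 0.57 on the log2 scale (limma, adjusted p = 5.36e-05). Among the others called were the caspase inhibitor XIAP (0.18), which rose, and the adaptor kinase RIPK1 (-0.47), the initiator CASP10 (-0.61) and BID (-0.84), the link from caspase-8 to mitochondria, which fell. These 4 were named after their values had been seen. CASP8 and its inhibitor CFLAR were not called, at log2 fold changes of -0.13 and -0.08. FADD, the adaptor of the TRAIL receptors, ranged from 5.09 to 14.4 FPKM in Hep3B-Con and from 8.25 to 20.3 in Hep3B-KD and was not called (adjusted p = 0.202).

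The relay from TRAF adaptors to NF-κB held 23 genes, all above the filter, with 10 called higher and 5 lower, beside 36.3% and 24% of all genes, 8 not called, and a median log2 fold change of 0.05 beside 0.11 over all genes. TRAF1 rose from 0.400 to 0.932 FPKM, by 1.04 on the log2 scale (limma, adjusted p = 0.00915). CHUK, the kinase IKKα, fell from 8.67 to 3.95 FPKM, by 1.11 (adjusted p = 2.21e-06). RBCK1, a subunit of the linear ubiquitin ligase, fell from 34.95 to 22.3 FPKM, by 0.64 (adjusted p = 1.14e-05). TRAF4 was at 29.3 and 28.4 FPKM, a log2 fold change of -0.05 that was 0.019 after quantile normalization. The NF-κB subunits RELA (-0.48) and NFKB1 (-0.41) and the adaptor TRAF3 (-0.12) were also called lower. The subunit REL (0.81) and the adaptor TAB3 (0.78) were called higher. So were CYLD (0.62), BIRC2 (0.44), TRAF6 (0.33), MAP3K7 (0.32), IKBKB (0.26), TAB2 (0.20) and TAB1 (0.18). From RELA on, these genes were named after their values had been seen. With centring on the median log ratio, 9 genes of this list were called lower and 9 higher, beside 30.5% and 28.8% of all genes.

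Of 15 genes known to be induced by NF-κB, 14 were measured, with 7 called higher, 3 lower and 4 not called, beside 36.3% and 24% of all genes, and a median log2 fold change of 0.28. TNFAIP3, the ubiquitin editor A20, rose from 4.08 to 11.6 FPKM, by 1.49 on the log2 scale (limma, adjusted p = 6.26e-06). BIRC3, an inhibitor of apoptosis bound to the TNF receptor complex, rose from 0.831 to 2.08 FPKM, by 1.24 (adjusted p = 0.00032). CXCL8, the chemokine interleukin-8, fell from 54.6 to 10.1 FPKM, by 2.42 (adjusted p = 3.57e-08). IER3, a stress response gene, fell from 103 to 33.1 FPKM, by 1.64 (adjusted p = 4.58e-08). The third lower gene, CCL20 (-0.41), and the NF-κB subunits NFKB2 (0.36) and RELB (0.34), which rose, were named after their values had been seen.

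**Figure D4:**
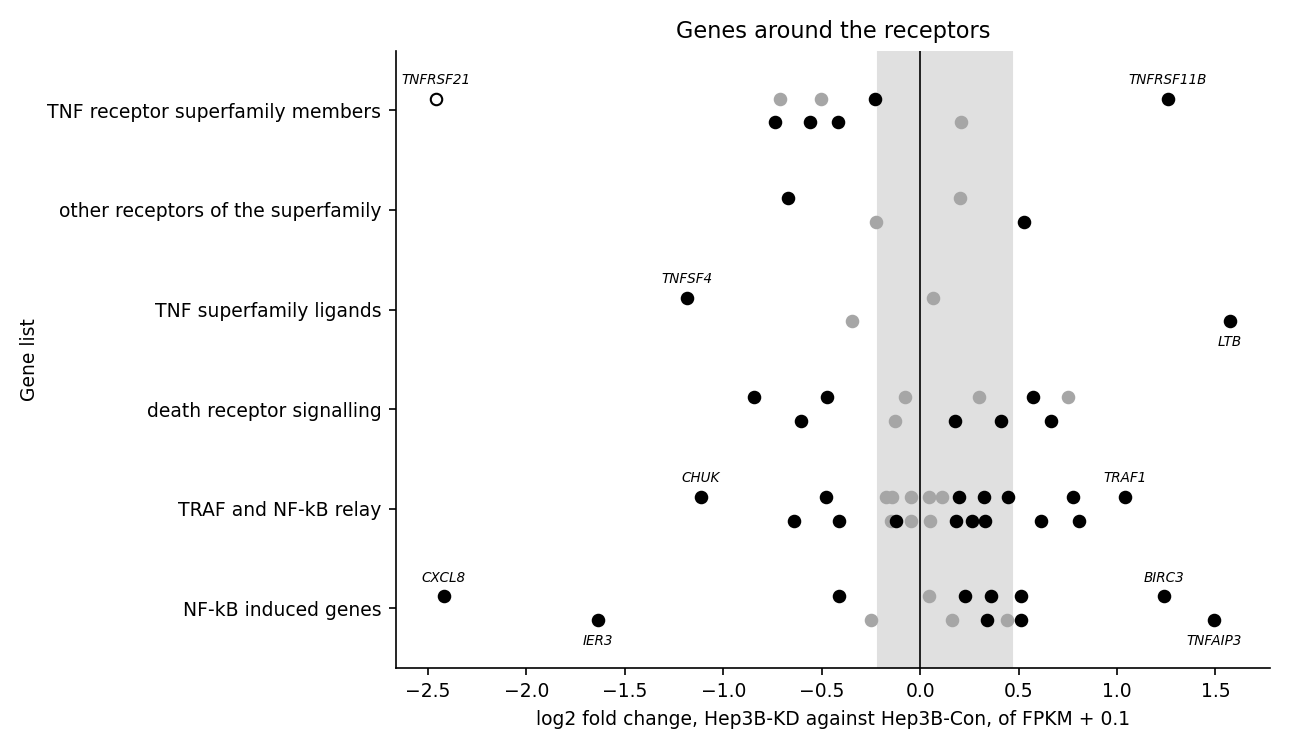
Log2 fold change, Hep3B-KD against Hep3B-Con, on FPKM + 0.1, of each gene above the filter in 6 gene lists; black points have an adjusted p under 0.05, grey points do not, the open point is TNFRSF21 (no test), and the grey band is the middle 50% of all genes tested. Genes past 2-fold are labelled, among them TNFRSF11B at 1.26, TNFAIP3 at 1.49 and CXCL8 at -2.42.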

How the data were processed

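The authors deposited FPKM values for 29908 Ensembl genes, 1 column per library, in a table with 0 other columns of values. Per the labels, submitters' processing notes name TopHat2 2.0.12, Bowtie2 2.0.6 and GRCh37, whereas all identifiers and exon lengths matched GENCODE release 29, so coordinates given here are those of that annotation on GRCh38; the counter is not given in the sources used here. Multiplied by exon length and library total, 100% of the deposited FPKM values lay no more than 0.01 from a whole read. These recovered reads served as depth and for limma's voom as an alternative. The floor of 3 reads covers counting error only, while limma's 95% intervals come from the spread between libraries.

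For each symbol, the row with the highest mean was kept (382 rows had a repeated symbol). Genes averaging 0.5 FPKM or more (14147) were fitted as log2(FPKM + 0.1) by group in limma 3.58.1 (lmFit, eBayes with trend; R 4.3.3) with Benjamini-Hochberg adjustment; a gene was called at an adjusted p under 0.05. Tables were handled in Python 3.11.15 with pandas 2.3.3, numpy 2.4.6 and scipy 1.17.1, and plots drawn with matplotlib 3.10.9. The fit was tested on simulated data with 200 genes changed 2-fold: 87.5% were recovered at a dispersion of 0.01 (9 false calls, 14146 genes), and 0% at a dispersion of 0.1 (0 false calls, 14139 genes). Far more genes than that were called in the real libraries, and which dispersion they resemble was not tested. These shares therefore do not give the sensitivity of the calls above.

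The receptors and the gene lists were chosen with earlier results of these data known. Named were the receptors, DAGLA, per list up to 3 genes called in each direction past 2-fold (with the 2 highest in mean FPKM where fewer than 3 passed), and the 3 genes most correlated with TNFRSF21 and with TNFRSF12A. Alternatives were 2 other pseudocounts (1 and 0.01), a filter at 1 FPKM or none, rescaling to the same sum, median centring, quantile normalization, eBayes without trend, repeated symbols kept, voom, the replicate number as a block, and each of 6 libraries left out. 3′ UTRs were the longest per gene among protein-coding transcripts of GENCODE release 29. Proteins were not used here, and some genes that the rule would name are not reported here.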

Additional observations from a re-analysis of the deposited data

How the results depend on the processing

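The falls of TNFRSF1A, TNFRSF10B and TNFRSF10D and the rise of TNFRSF11B were called in all 17 alternatives; TNFRSF12A, TNFRSF10A, TNFRSF11A and TNFRSF19 changed call in some, as given with each gene. The number of receptors called higher went from 1 to 2 with voom and, leaving out 1 library at a time, ranged from 1 to 2. Genes past 2-fold over the whole table numbered 832 higher and 417 lower, and 249 and 246 with a pseudocount of 1; 474 were higher and 584 lower with quantile normalization. Ligands called lower went from 1 to 2 with centring and with quantile normalization and ranged from 1 to 2 with 1 library left out. TRAF and NF-κB relay genes called lower went from 5 to 9 with centring, and death receptor signalling genes called lower from 3 to 5 with quantile normalization. Other receptors called higher ranged from 1 to 2 with 1 library left out (2 without Hep3B-Con replicate 2), and those called lower went from 1 to 2 with quantile normalization. TRAF4 changed sign from -0.05 to 0.019 with quantile normalization (limma, adjusted p = 0.739). The cause of these shifts was not tested.

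The numbered replicates are not said to be paired, and the deviations of same-numbered libraries correlated at -0.0080, -0.0645 and -0.0009. Values this low show no replicate effect shared over all genes, but they do not speak to single genes and cannot tell how the cultures were set up. With the replicate block, the receptors called higher went from 1 to 2 and the ligands called lower from 1 to 2.

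Depth limits TNFRSF11A, TNFRSF10A and the ligands, which rest on few reads. Groups of 3 were not tested for outlying libraries, and 3 against 3 cannot pass 0.05 in an exact permutation test.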
